A study of Sus scrofa with 9 samples.

Results

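The DLK1-DIO3 miRNA cluster was described across 9 spleen libraries of Ningxiang pigs, an indigenous Chinese breed. Its members were taken by name, as every pig entry of the deposited miRNA table that carried 1 of 42 numbers known from this cluster. The choice was made with earlier results of these data known. Of those numbers 15 were found, and they gave 24 of the 975 entries kept from the table, of which 453 are named pig miRNAs. The 24 entries come from 16 precursors, and both arms were listed for 8 of them. The spleens were taken at postnatal day 30, day 90 or day 210, with 3 libraries per age, and no treatment or genetic change is given for any group. Whether the 3 libraries of an age stand for different pigs is not stated in the labels. The p-values therefore cover library-to-library spread, which may be technical.

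The DLK1-DIO3 domain is an imprinted region, in which each gene is read from the chromosome of 1 parent. DLK1, RTL1 and DIO3 are expressed from the paternal copy, and a long set of noncoding RNAs, among them MEG3, the antisense transcript of RTL1, MEG8 and the miRNA precursors, from the maternal copy. In human and mouse the miRNAs are strongly expressed in embryo, placenta and brain, and most adult tissues hold less of them. A miRNA pairs with its target messages mainly through its seed, bases 2 to 8 counted from the 5′ end. In this cluster the miRNAs fall into a group near MEG3 and RTL1 (miR-493, miR-127, miR-432, miR-136 and miR-370, called proximal here) and a longer group downstream (called distal here), an order taken from human and mouse. In the RefSeq table of the pig genome (Sscrofa11.1), 7 of the 16 precursors had an entry. There DLK1, MEG3, MIR493 and RTL1 followed each other, and MIR127, MIR432 and MIR136 lay within the bounds of RTL1. MIR376C, MIR376A, MIR381 and DIO3 were not placed with them.

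The mature sequences of the 11 members with a mean of at least 100 over the 9 libraries carry nearly all of the cluster's signal. They are shown as the deposited table gives them, with T for U and the seed in capitals. Some full names carry a suffix for changed ends, so each seed is that of the listed sequence. The seed of the reference miRNA may differ where the 5′ end is changed. miR-432-5p and miR-136-3p, which with miR-127 come from the strand opposite RTL1, follow them.
miR-127: tCGGATCCgtctgagcttggct
miR-381-3p: tATACAAGgacaagctctctgt
mir-494-p3: tGAAACATacacgggaaacctct
miR-758: tTTGTGACctggtccactaac
miR-370: gCCTGCTGgggtggaacctggt
miR-411: tATGTAACacggtccactaac
miR-323: gCACATTAcacggtcgacctct
mir-299-p3: tATGTGGGacggtaaaccgctt
mir-411-p5: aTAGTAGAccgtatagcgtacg
mir-487b-p3: aATCGTACagggtcatccactt
miR-299: tGGTTTACcgtcccacatacat
miR-432-5p: tCTTGGAGtaggtcattgggtgt
miR-136-3p: cATCATCGtctcaaatgagtct

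By the listed sequences, no pair of the 24 members shared a seed, although they lie in 1 cluster. For 23 of the 24 members (95.8%) no other entry of the table held the same seed, against 260 of the 429 other pig entries (60.6%). The exception was miR-432-5p, whose seed was also held by 1 candidate predicted by the authors. The other pig entries include variants of the same miRNA listed apart, such as those of miR-126-3p, and the members include none. The part of such variants in this difference was not tested. Outside the seed some members are alike. miR-758 and miR-411 end in the same 11 bases, a run held by 2 of the pig entries, and mir-376c-p3 and miR-376a-3p share 11 bases that begin at position 3 and so reach from the seed into the middle. In the following lines the shared run is in capitals.
miR-758: tttgtgacctGGTCCACTAAC
miR-411: tatgtaacacGGTCCACTAAC
mir-376c-p3: aaCATAGAGGAAAttccacgt
miR-376a-3p: atCATAGAGGAAAatccacat
The miR-376 family is known in human and mouse for editing of an adenosine to inosine in its seed, which changes its targets. Edited reads were not analysed here.

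The values are the authors' normalised read numbers, a signal scaled per library whose scaling is not given in the sources used here. The entries kept were estimated to hold 4.50 to 9.25 M reads per library (M, mega), with the fewest in day 210 replicate 3. This estimate takes the commonest low value of each library as 5 reads and leaves out reads outside these entries. Most sequences with fewer than 5 reads are listed at 0, and 5 reads stood for a value of 3.62 to 8.001, the highest again in day 210 replicate 3. Smooth muscle and fibroblast miRNAs, such as miR-143-3p and miR-145-5p, summed to 914159.8 to 1635360.4 per library. Lymphocyte miRNAs, such as miR-181a and miR-150, summed to 256789 to 371927. The cluster is thus a minor component of a table dominated by other miRNAs.

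All 24 members together summed to 14782, 10111 and 14055 in day 30 replicates 1, 2 and 3. The sums were 6554, 9454 and 7576 at day 90 and 16138, 11725 and 23511 at day 210. Every day 90 library lay below every library of the other ages, while days 30 and 210 overlapped. The group means were 12983 ± 2513 at day 30, 7861 ± 1471 at day 90 and 17125 ± 5954 at day 210 (SD, n = 3). As a share of all values, which does not depend on the authors' scaling, the cluster held 0.204 ± 0.0448%, 0.117 ± 0.0213% and 0.2303 ± 0.0897% at the 3 ages. By share too, the day 90 libraries, at 0.102% to 0.142%, lay below all the others, of which day 210 replicate 2 was the lowest at 0.149%. These sums are descriptions, with no test. In bulk tissue, fewer cells of a type and less RNA per cell cannot be told apart.

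**Figure D1:**
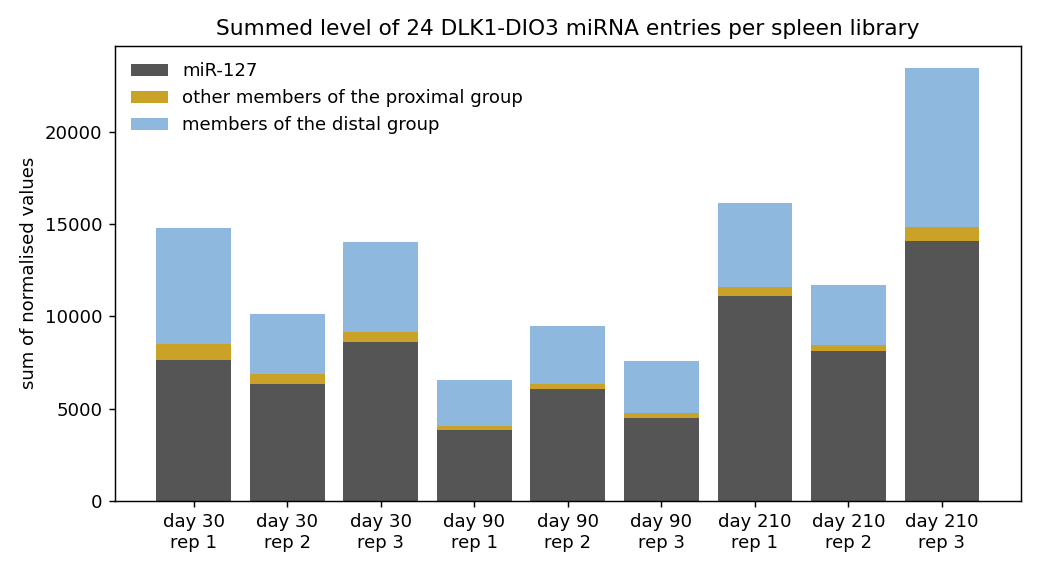
Stacked bars give the sum of normalised values of the 24 entries in each of the 9 libraries (vertical axis), divided into miR-127, the other proximal members and the distal members. The 3 day 90 bars, between 6554 and 9454, are the lowest, and day 210 replicate 3, at 23511, is the highest.

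miR-127 made up most of the cluster's signal. With a mean of 7802 it held 61.6% of the summed values, and it was the 81st most abundant of the 453 pig entries. It held between 51.7% and 69.3% of the cluster in single libraries. miR-381-3p followed with 9.48%, mir-494-p3 with 6.74%, miR-758 with 5.52% and miR-370 with 3.02%. The mature sequences are of nearly equal length, 21 to 23 bases, so these levels compare on the same footing, apart from differences in how well each sequence is captured in a library. Members with a mean of at least 100 numbered 11, and the other 13 had a mean under 100. Of all members, 16 were above 0 in every library, and a library held 18 to 23 members above 0.

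Of the 24 members 22 reached 5 in 3 or more libraries and were tested. All 22 reached 5 in at least 1 library of every age, so none passed through 1 age alone. The members left out were mir-370-p5, listed at 4.24 in day 30 replicate 1 and at 0 elsewhere, and miR-493-3p, listed at 5.33 and 12.8 in day 210 replicates 1 and 3 and at 0 elsewhere. Tests used limma on log2(value + 1), with p adjusted over all 630 entries tested (Benjamini-Hochberg, threshold 0.05), and fold changes are on that scale. The comparisons share libraries: day 90 enters both neighbouring steps, so an unusual day 90 library moves both.

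From day 30 to day 90 nearly all members had lower values, and 1 passed the test. The call was miR-323, 1 of 22 members, where 1.11% of all tested entries were called in either direction and 0.317% as lower. Lower estimates were found for 20 of the 22 members, against 53.3% of all entries. The 3 libraries of day 90 lay wholly below those of day 30 for 9 members, against 13.8% of all entries. An unadjusted p under 0.05 with a lower value was found for 7 members, against 7.46%. The median log2 fold change of the members was -0.90, and that of all entries -0.04.

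From day 90 to day 210 the members had higher values again, and 1 passed the test. That call was miR-127, 1 of 22 members, where 8.1% of entries were called in either direction and 4.13% as higher. Higher estimates were found for 20 members, against 43.3% of all entries. The day 210 libraries lay wholly above those of day 90 for 12 members, against 13.3%. An unadjusted p under 0.05 with a higher value was found for 9 members, against 12.1%. The median was 0.81, and that of all entries -0.14. With single libraries left out, the members' median ran from 0.44, without day 210 replicate 3, to 1.13.

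Between day 30 and day 210 limma called 0 of the 22 members, against 9.21% of entries. At an unadjusted p under 0.05 there were 3 members, miR-323 with a lower value and miR-127 and miR-411 with higher values, against 29.4% of entries. Estimates were higher for 12 members and lower for 10, with a median of 0.02 against -0.15 for all entries. That median became -0.41 when day 30 replicate 2 was left out, -0.038 on leaving out day 30 replicate 3, and -0.43 once day 210 replicate 3 was dropped. The ages overlapped for all members but 1, miR-323, whose day 210 libraries lay wholly below day 30, as for 18.1% of entries. The F test over the 3 ages called miR-127 and miR-323, 2 of the 22, against 10.3% of entries. By the mean of the untransformed values, day 90 was the lowest of the 3 ages for 21 of the 22, against 31.1% of entries. On the log2(value + 1) scale, day 90 was not below day 30 for miR-136-3p and miR-376a-3p, nor below day 210 for mir-369-p5 and mir-382-p3. All 3 day 90 libraries lay below all 6 others for miR-127, miR-370, miR-323, mir-299-p3, mir-487b-p3 and miR-432-5p, which is 6 of the 22 against 2.38% of entries.

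**Figure D2:**
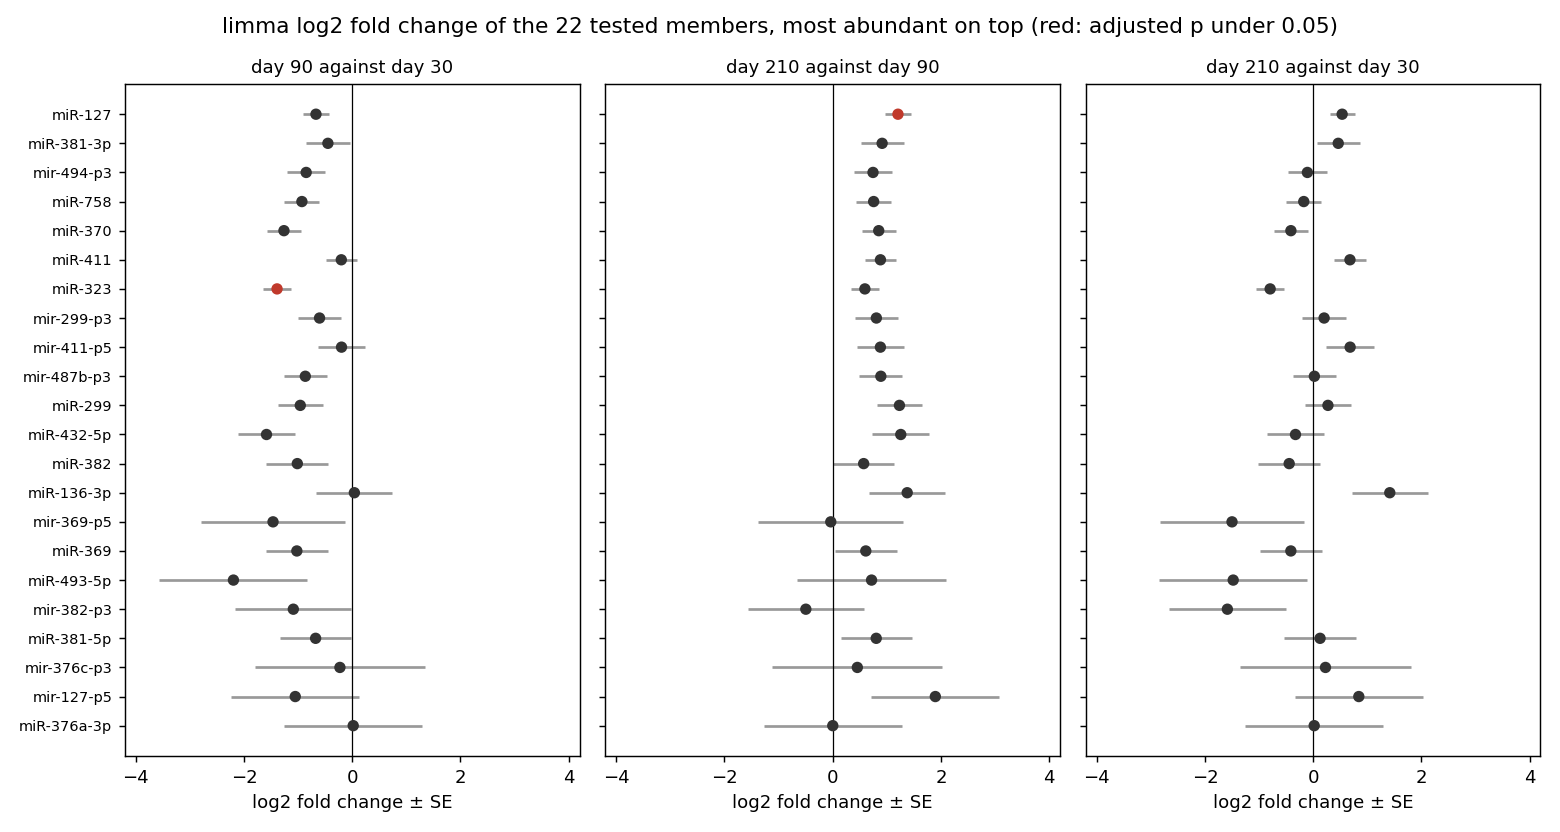
Points give the limma log2 fold change on the log2(value + 1) scale and bars its SE for the 22 tested members, the most abundant on top, in 3 comparisons. Red points have an adjusted p under 0.05: miR-323 in day 90 against day 30 (-1.39) and miR-127 in day 210 against day 90 (1.21), and most other points lie on the same side as these within each of those panels.

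In the proximal group, miR-127 is the best known member. It lies antisense to RTL1 and in mouse directs cleavage of the RTL1 transcript, and in human cells it represses BCL6. It stood at 7646, 6350.3 and 8587 at day 30, at 3821, 6036 and 4483 at day 90, and at 11098, 8126 and 14068 at day 210. No day 90 library reached the lowest library of another age, and days 30 and 210 overlapped. The means were 7527 ± 1123, 4780.1 ± 1137 and 11097 ± 2971 (SD, n = 3). miR-127 rose 2.31-fold from day 90 to day 210 (log2 1.21 ± 0.23 SE, adjusted p = 0.0185 by limma). This call was lost when day 90 replicate 1 (adjusted p = 0.0715) or day 90 replicate 3 (adjusted p = 0.0647) was left out. Against day 30, the log2 difference was -0.67 ± 0.23 at day 90 (adjusted p = 0.2204) and 0.54 ± 0.23 at day 210 (adjusted p = 0.162), neither past the threshold. Its F test over the ages gave an adjusted p of 0.0258.

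miR-370, which in human liver cells represses the fatty acid oxidation gene CPT1A, had values of 695, 457 and 426 at day 30. It stood at 177, 250.1 and 219.7 at day 90 and at 399, 257 and 560.04 at day 210. The day 90 libraries were the lowest, with day 210 replicate 2 just above them. The log2 difference of day 90 from day 30 was -1.26 ± 0.31 (adjusted p = 0.119 by limma), and that of day 210 from day 90 was 0.85 ± 0.31 (adjusted p = 0.1203). The first of these passed when day 210 replicate 2 (adjusted p = 0.0448) or day 210 replicate 3 (adjusted p = 0.0353) was left out. Its F test gave 0.0610, also above the threshold.

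The remaining proximal members were scarce. miR-432-5p, antisense to RTL1 like miR-127, stood at 67.04, 24.8 and 68.8 at day 30, at 10.5, 17.3 and 20.5 at day 90, and at 37.3, 24.5 and 62.4 at day 210. Again the day 90 libraries were lowest, with log2 differences of -1.58 ± 0.52 (adjusted p = 0.214 by limma) and then 1.26 ± 0.52 (adjusted p = 0.161). miR-136-3p comes from the same antisense transcript. It stood at 36.5, 5.72 and 27.5 at day 30, at 14.4, 26.4 and 17.5 at day 90 and at 38.4, 30.99 and 107 at day 210. Day 210 lay above day 90 and overlapped day 30, and day 90 differed from day 30 by a log2 of 0.04 ± 0.70, an estimate that was -0.72 when day 30 replicate 2 was left out. From day 30 to day 210 miR-136-3p had the highest estimate among the 22, 1.42 ± 0.70, with an adjusted p of 0.209. It was 0.65 when day 30 replicate 2 was left out and 0.88 when day 210 replicate 3 was. miR-493-5p stood at 24.6, 21.9 and 26.1 at day 30, at 0, 13.2 and 10.6 at day 90, and at 20.3, 0 and 33.6 at day 210. The libraries at 0 make its estimates wide, -2.20 ± 1.37 at day 90 against day 30 (adjusted p = 0.506). mir-127-p5 ran from 0 to 17.4, with a log2 difference of 1.90 ± 1.18 between days 90 and 210 (adjusted p = 0.321). Over the 6 tested proximal members the median log2 difference was -1.16 from day 30 to day 90, 1.23 from day 90 to day 210 and 0.10 from day 30 to day 210.

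**Figure D3:**
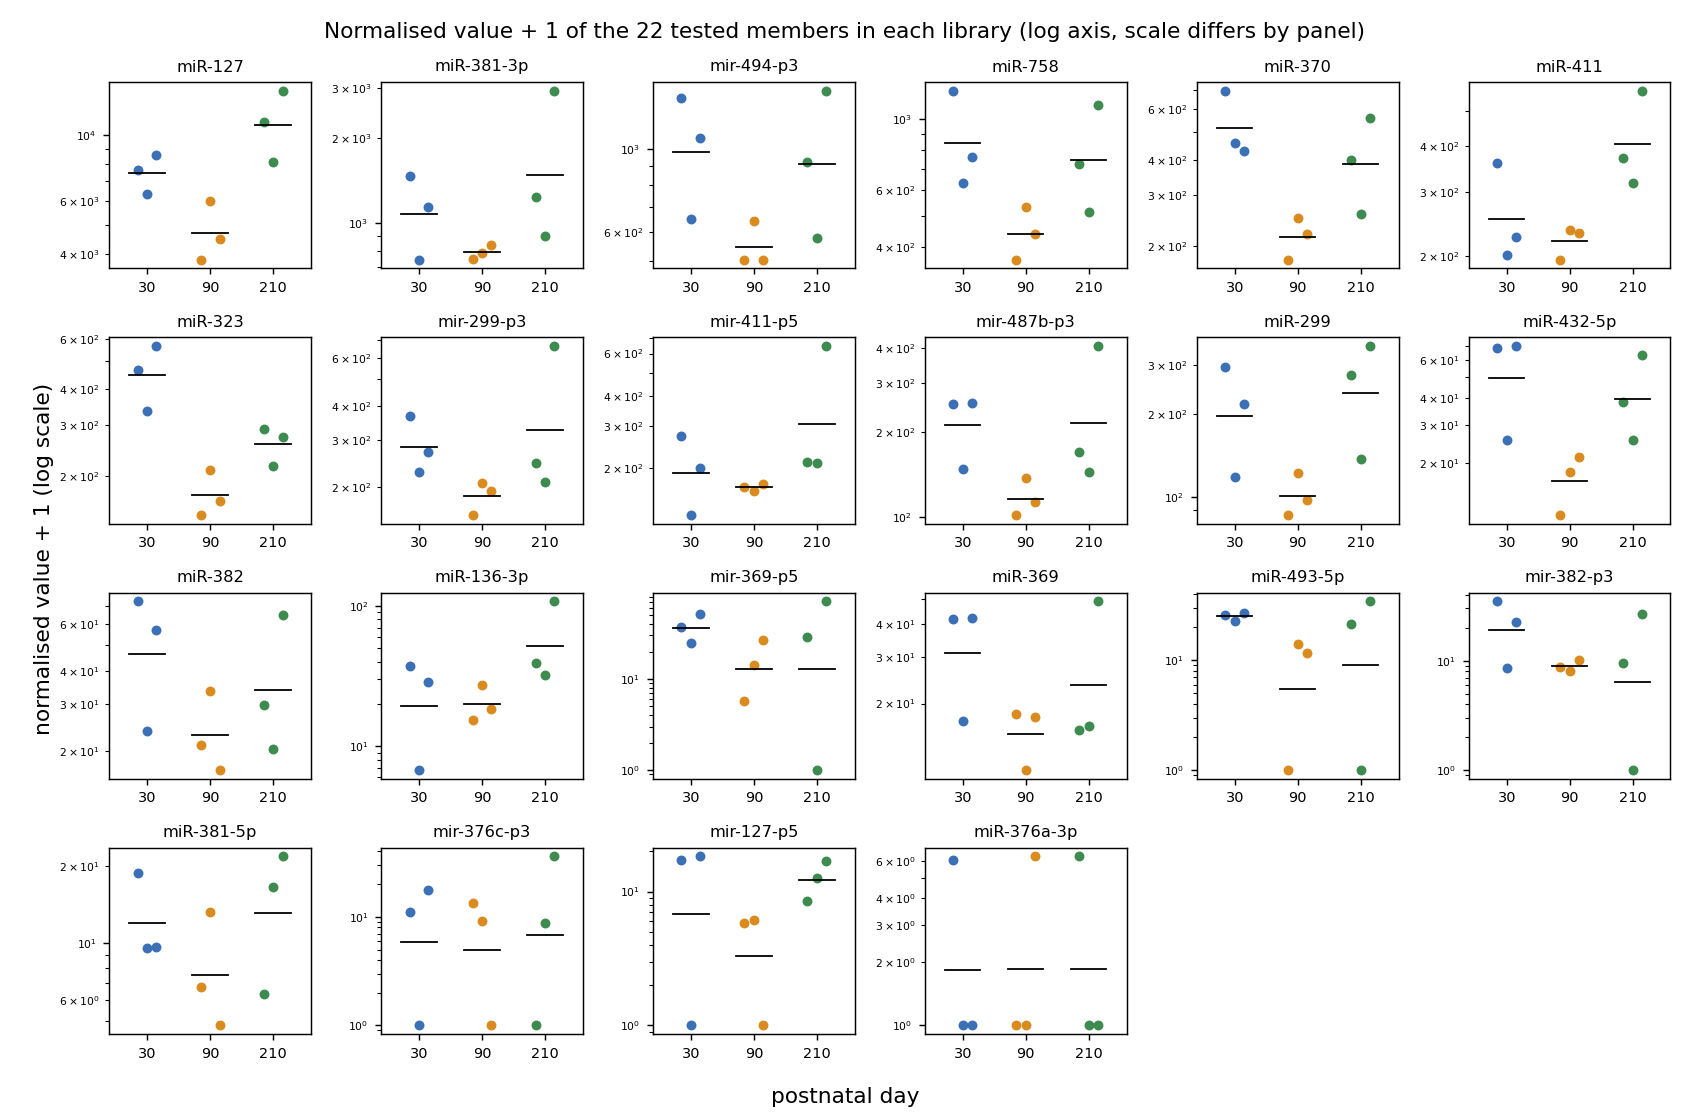
Each panel is 1 of the 22 tested members, each point a library, coloured by postnatal day (horizontal axis), and the black line the geometric mean of value + 1 on a log axis whose range differs by panel. In miR-127, miR-370 and miR-323 the 3 day 90 points are the lowest, and in miR-376a-3p, where 6 libraries are listed at 0, no course over age can be seen.

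In the distal group, miR-323 gave the other call. It stood at 468, 336 and 565 at day 30, at 144.7, 208 and 162 at day 90, and at 290.1, 214.3 and 272 at day 210. The 3 ages did not overlap, with day 30 highest, day 210 between and day 90 lowest. miR-323 fell 2.62-fold from day 30 to day 90 (log2 -1.39 ± 0.26 SE, adjusted p = 0.03304 by limma). The call was lost without day 30 replicate 1 (adjusted p = 0.183), day 30 replicate 3 (0.166), day 90 replicate 1 (0.257), day 90 replicate 2 (0.0780) or day 90 replicate 3 (0.113). Its log2 difference stayed between -1.59 and -1.22 over the refits that each left out 1 of the 9 libraries. From day 90 to day 210 the difference was 0.59 ± 0.26 (adjusted p = 0.176), and from day 30 to day 210 it was -0.79 ± 0.26 (adjusted p = 0.07399). The F test gave 0.0236.

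The more abundant distal members had no call. miR-381-3p stood at 1471, 740.1 and 1145 at day 30, at 744, 782 and 839.98 at day 90, and at 1233, 899.9 and 2943 at day 210. Days 30 and 90 overlapped, day 210 lay above day 90, and day 210 replicate 3 exceeded every other library. The log2 difference was -0.45 ± 0.40 at day 90 against day 30 (adjusted p = 0.675 by limma) and 0.91 ± 0.40 at day 210 against day 90 (adjusted p = 0.177). mir-494-p3, the third most abundant member, stood at 1375, 648 and 1072 at day 30, at 504, 639 and 503.2 at day 90, and at 924, 577 and 1434 at day 210. The highest day 90 library stood just under the lowest of day 30, and day 210 replicate 2 lay within the range of day 90. miR-758 stood at 1222, 631 and 762 at day 30, at 363, 533 and 438 at day 90, and at 723, 511 and 1107 at day 210, the same arrangement. Their differences of day 90 from day 30 were -0.85 ± 0.35 (adjusted p = 0.283) and -0.93 ± 0.33 (adjusted p = 0.2204).

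For both arms of miR-411 the estimates between days 30 and 90 were small. miR-411 stood at 358, 201 and 224 at day 30, at 195, 236 and 231 at day 90, and at 371, 318 and 566 at day 210. Day 90 overlapped day 30, and day 210 lay above day 90 in every library. The log2 difference was -0.20 ± 0.29 from day 30 to day 90 (adjusted p = 0.834 by limma), 0.88 ± 0.29 from day 90 to day 210 (adjusted p = 0.0924) and 0.68 ± 0.29 from day 30 to day 210 (adjusted p = 0.153). mir-411-p5 stood at 272, 125.9 and 199.1, then at 165, 159.6 and 171, then at 211, 208 and 645. Its day 210 mean rests on replicate 3, since the other 2 libraries lay inside the range of day 30.

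mir-299-p3 stood at 365, 226 and 269 at day 30, at 157, 206 and 194 at day 90, and at 244, 209 and 662 at day 210. miR-299, the opposite arm, stood at 295, 117 and 216, then at 85.3, 122 and 96.5, then at 275, 136.9 and 352. In both arms day 90 was low, but for miR-299 day 30 replicate 2 lay inside the range of day 90. The log2 difference of miR-299 was -0.96 ± 0.42 from day 30 to day 90 (adjusted p = 0.317 by limma) and 1.23 ± 0.42 from day 90 to day 210 (adjusted p = 0.104). mir-487b-p3 stood at 252, 147 and 254, then at 101, 136.2 and 112, then at 169.6, 143.3 and 405. Its day 90 libraries were the lowest, with differences of -0.87 ± 0.40 (adjusted p = 0.347) and 0.89 ± 0.40 (adjusted p = 0.184).

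The other 7 distal members had means under 100. miR-382 ranged from 15.96 to 72.1 over the 9 libraries, miR-369 from 10.2 to 48.004 and miR-381-5p from 3.801 to 20.8. mir-369-p5 stood at 35.6, 23.8 and 49.96 at day 30, at 4.79, 13.2 and 25.8 at day 90, and at 27.7, 0 and 70.4 at day 210. It and mir-382-p3 were the members with a lower estimate at day 210 than at day 90, by a log2 of -0.04 ± 1.34 and -0.50 ± 1.07. Both were listed at 0 in day 210 replicate 2, and without that library the estimates were 1.80 and 0.83. From day 30 to day 210 mir-382-p3 had the lowest estimate of the 22, -1.59 ± 1.07 (adjusted p = 0.366 by limma), which became -0.25 when day 210 replicate 2 was left out and -2.62 when day 210 replicate 3 was. mir-376c-p3 ranged from 0 to 35.2. miR-376a-3p was listed at 5.09, 5.32 and 5.33 in 1 library of each age and at 0 in the other 6, so its estimates, near 0 in all comparisons, carry no course over age. Over the 16 distal members the median log2 difference was -0.86 from day 30 to day 90, 0.75 from day 90 to day 210 and 0.02 from day 30 to day 210. Over all 22 tested members, those with a mean of at least 100 and those under 100 were also set side by side. Their medians were -0.85 and -1.02 at the first step, and 0.88 and 0.61 at the second. From day 30 to day 210 the medians differed in sign, 0.20 and -0.33.

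The libraries within an age also ranked alike across members. Day 30 replicate 2 was the lowest library of its age for 20 of the 22 members, against 33.3% of all entries tested. Day 210 replicate 3 was the highest of its age for 20 members, against 37.8%, and the highest of all 9 for 14, against 17.6%. Day 210 replicate 2 was the lowest of its age for 17 members, against 24.6%. The spread within days 30 and 210 was thus shared between most members, and their counts are not independent of each other. Day 210 replicate 3 is also the library with the fewest estimated reads, and the part of depth in its high values was not tested.

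**Figure D4:**
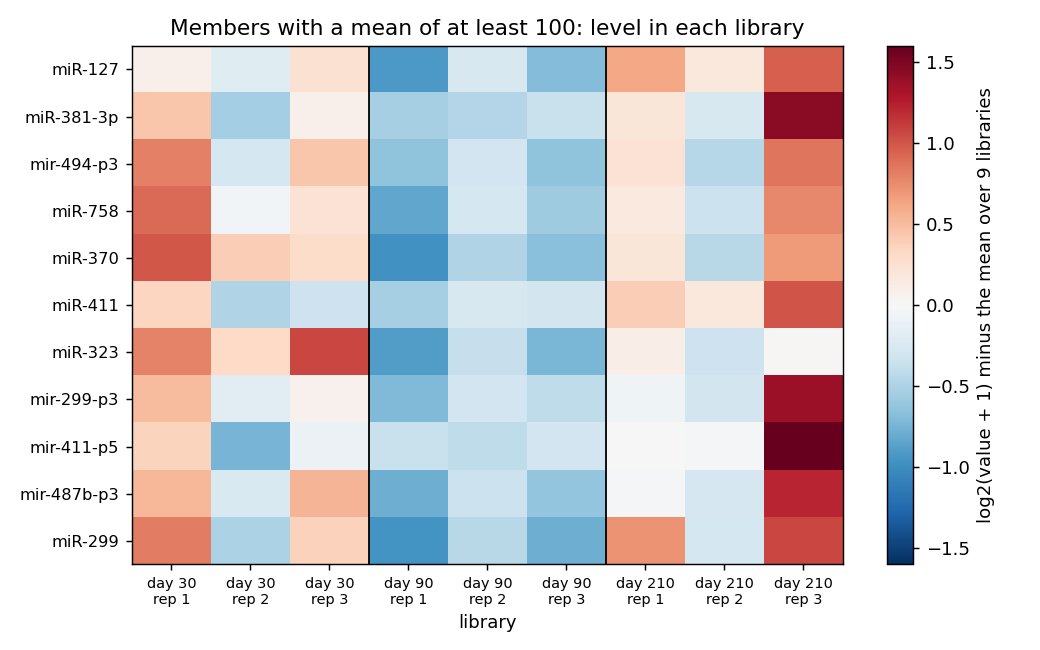
Colours give log2(value + 1) minus the member's mean over the 9 libraries (red higher, blue lower) for the 11 members with a mean of at least 100, with libraries in columns. All 3 day 90 columns are blue, day 210 replicate 3 is red for every member but miR-323, day 210 replicate 2 is paler or bluer than the other libraries of its age, and so is day 30 replicate 2 for every member but miR-370.

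Ratios between members within a library are given as a description, for pairs chosen after the values were seen. The ratio of miR-411 to miR-323 was 0.766, 0.599 and 0.397 at day 30. It was 1.34, 1.13 and 1.43 at day 90 and 1.28, 1.48 and 2.08 at day 210. miR-411 was thus the scarcer of the pair in every day 30 library and the more abundant in every later one. The ratio of miR-127 to miR-323 was 16.4, 18.9 and 15.2 at day 30, 26.4, 28.97 and 27.7 at day 90, and 38.25, 37.9 and 51.7 at day 210, with no overlap between ages. The ratio of miR-411 to miR-758 was 0.293 to 0.319 at day 30. It was 0.443 to 0.536 at day 90 and 0.512 to 0.621 at day 210. Day 30 likewise lay below both later ages for miR-381-3p to miR-323 and for mir-411-p5 to miR-370. The ratios of mir-494-p3 and of mir-487b-p3 to miR-758 overlapped at all ages. The ratio of mir-494-p3 to miR-758 ran from 1.03 to 1.41 at day 30, from 1.15 to 1.39 at day 90 and from 1.13 to 1.29 at day 210. Such ratios do not depend on how a library was scaled. As listed, miR-411 and miR-323 have different seeds. They share a run of 8 bases, in capitals here, that begins at the end of the seed of both.
miR-411: tatgtaACACGGTCcactaac
miR-323: gcacattACACGGTCgacctct

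A precursor yields a 5p and a 3p arm, and usually 1 of them is kept. The 3p arm held 99.9% of the summed values of both arms for miR-127 and miR-370 and 99.1% for miR-381, and was the higher arm in all 9 libraries. mir-370-p5 was listed at 0 in 8 of the 9 libraries. miR-299 and miR-411 gave both arms at similar levels, with the 3p arm at 59.9% and 55.6% and higher in 8 of 9 libraries each. For miR-369 the 3p arm held 46.8% and was higher in 3 libraries. The 5p arm was the higher in every library for miR-382, where the 3p arm held 26.8%, and for miR-493 wherever either was listed above 0, where the 3p arm held 10.8%. The arms of miR-299 pair over 18 bases, the longest complementary run among the 8 precursors with both arms, in capitals here.
miR-299: tGGTTTACCGTCCCACATAcat
mir-299-p3: TATGTGGGACGGTAAACCgctt

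**Figure D5:**
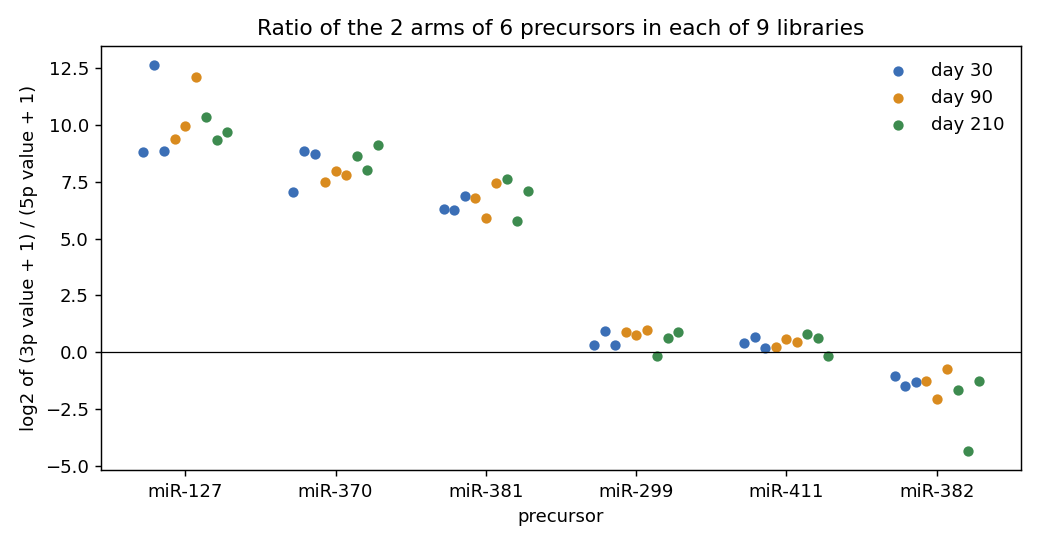
Points give the log2 ratio of the 3p arm to the 5p arm, each value + 1, in each of 9 libraries for 6 precursors, coloured by day; the line at 0 marks equal arms. miR-127, miR-370 and miR-381 lie far above 0 at every age, miR-299 and miR-411 within 1 of it, and miR-382 below it, with day 210 replicate 2, where the 3p arm is listed at 0, lowest at -4.35.

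Other lists give a setting for these values. The miRNAs of the X-linked miR-424 cluster, which is not imprinted, had 0 of 8 tested members called by limma in any comparison, with medians of -0.87 from day 30 to day 90 and 0.39 from day 90 to day 210. Its members summed to 779.9 to 1116 at day 30, 456 to 542.8 at day 90 and 492 to 798 at day 210, with day 90 below day 30 in every library and overlapping day 210. Of 3 entries from other imprinted miRNA genes, miR-296-3p and both arms of miR-335, limma called 0. Their median was 0.29 from day 30 to day 90, with 2 higher estimates and 1 lower. The lower was that of miR-296-3p, the most abundant of them (log2 -0.46 ± 0.32). The 3 entries summed to 2508 to 3654 at day 30, 2021 to 2562 at day 90 and 1266 to 2798 at day 210. The day 90 range overlapped that of day 30 and lay inside that of day 210.

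Of the 11 smooth muscle and fibroblast entries, miR-145-5p rose from day 90 to day 210 (log2 1.17 ± 0.17, adjusted p = 0.00683 by limma). It was also higher at day 210 than at day 30 (log2 0.78 ± 0.17, adjusted p = 0.0232 by limma). The list had medians of -0.39 and then 0.26. Its sums were 1145960.2 to 1198126 at day 30, 914159.8 to 1242022 at day 90 and 1378345 to 1635360.4 at day 210. Of the 10 lymphocyte entries, miR-150 rose from day 30 to day 90 (log2 0.75 ± 0.12, adjusted p = 0.0190 by limma). It was also higher at day 210 than at day 30 (log2 0.94 ± 0.12, adjusted p = 0.00388 by limma). miR-342 rose from day 90 to day 210 (log2 0.56 ± 0.12, adjusted p = 0.0205 by limma). The list had medians of 0.36 and then -0.28, and its sums were 256789 to 284933, then 357710.3 to 371927, then 333437 to 366427. The first list thus had its 2 lowest libraries at day 90, and the second its lowest at day 30. Neural entries summed to 6379 to 7348, 7674 to 8273 and 5027 to 6129 at the 3 ages, with day 90 highest. The 7 tested had medians of 0.22 and then -0.66, with 5 higher and 2 lower estimates at the first step. miR-128, the most abundant of them, fell from day 90 to day 210 (log2 -0.59 ± 0.14, adjusted p = 0.0295 by limma). miR-219a also fell over that step (adjusted p = 0.00796 by limma) and was listed at 0 in every day 210 library. From day 30 to day 210 miR-138 and miR-219a fell (adjusted p = 0.0303 and 0.0152 by limma). The 4 erythroid entries had medians of -0.71 from day 30 to day 90 and -0.47 from day 90 to day 210, and miR-486 and mir-144-p5 fell from day 30 to day 210 (adjusted p = 0.00873 and 0.0266 by limma). The 3 endothelial entries, all of miR-126, had medians of -0.32 and -0.17, and the 2 myeloid entries, both arms of miR-223, of 0.51 and -1.91, with 0 calls by limma in either list. The part of cell makeup in the course of the cluster was not tested.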

How the data were processed

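Small RNA of 9 spleen libraries was measured. Per the labels' protocols, the authors sequenced TruSeq small RNA libraries and passed raw reads through ACGT101-miR, which removed adapter dimers, low-complexity reads, other RNA families and repeats. No aligner, genome build, miRNA database or scaling is named in the sources used here, so no positions are printed. The deposited signal is a normalised read number per mature sequence, per the file headers, and not a raw count. The table holds 980 entries, of which 5 repeats were dropped. Names are printed without the species prefix and suffix. For 10 members the full name carries neither a suffix for changed ends nor a -p5 or -p3 arm label. Each library's step between low values was read from the table, with the commonest low value taken as 5 reads. Between 88.1% and 92.7% of non-zero values were whole multiples of it (tolerance 0.01 of a step), so depths are estimates.

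limma 3.58.1 in R 4.3.3 modelled log2(value + 1) by age in all 9 libraries together, and a mean-variance trend entered the empirical Bayes step. Only entries that reached 5 in 3 or more libraries entered the tests, 630 in all. The procedure was tested on simulated data. Members and lists were chosen with earlier results of these data known. Described by name are the 12 most abundant members, every called member, the 8 largest changes per comparison and those against the majority. Named examples of other lists are the 2 most abundant and, where a call is given, the called entry. Other pseudocounts, filters, scalings and fits, and each library left out, were tried as alternatives.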

Additional observations from a re-analysis of the deposited data

How the results depend on the processing

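Values rest on normalised read numbers without counts, and members with a mean under 100 rest on few reads. Over 22 alternatives, miR-323 at day 90 against day 30 was called in 13 and miR-127 at day 210 against day 90 in 18, both keeping their direction in all. miR-323 was also lost without the mean-variance trend (adjusted p = 0.0528), with a GC correction (0.0659), and miR-127 without the trend (0.0535) or with the compared ages alone fitted (0.0526). The cause was not tested.

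At day 90 against day 30, 7 entries were called over the whole table, against 13 with a common floor of 8.001, 24 with the compared ages alone and 81 with sample weights. Members called there, 1 in the report, were 0 without the trend or with a GC correction, 2 with the compared ages alone and 8 with sample weights. At day 210 against day 30 the 58 calls became 92 with equal library sums, 38 with the floor, 25 with the compared ages alone, 109 with weights and 117 with the GC correction, and members called, 0 in the report, were 1 with equal sums, 1 with weights and 2 with the GC correction. The split of these 58 calls, 29 higher and 29 lower, was 21 and 71 with equal sums, which moved the median of all entries from -0.15 to -0.38, and 83 and 34 with the GC correction. The members' median in that comparison, 0.02, was -0.11 with a stricter filter, -0.15 with equal sums, -0.053 with the floor and -0.34 with weights. At day 210 against day 90 the 51 calls became 24 without the trend, 14 with the compared ages alone and 100 with weights, and the 1 member called became 0, 0 and, with the GC correction, 4. The F test called 65 entries, against 37 without the trend, 168 with weights and 98 with the GC correction. Members called by it, 2 in the report, were 1 with equal sums, the floor or no trend, and 8 with weights.

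With replicate numbers as a block, which the labels do not tie to animals, 1 entry and 0 members were called at day 90 against day 30 (miR-323 adjusted p = 0.0790), and 45 and 47 entries in the later comparisons. Correlations between libraries of different ages ran from -0.102 to 0.188 with the same number and from -0.146 to 0.110 with different numbers. These overlapping ranges cannot decide whether the numbers pair libraries. No block entered the main fit, since no label says that a number marks a shared litter, batch or day. With the block and the GC correction the calls were 2 entries and 0 members, then 102 and 1 at day 210 against day 30, 4 members at day 210 against day 90, and 1 member in the F test.

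With each library left out in turn, the calls ran from 1 to 20 at day 90 against day 30, 9 to 90 at day 210 against day 30, 8 to 112 at day 210 against day 90 and 20 to 136 in the F test. Members called ran from 0 to 2, 0 to 0, 0 to 1 and 0 to 3, and the members' median at day 210 against day 30 from -0.43 to 0.27.

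Estimates of uncalled members that turned their sign are given as log2 differences, and the cause was not tested. At day 90 against day 30, single libraries left out gave miR-411 -0.37 to 0.048, mir-411-p5 -0.49 to 0.060, miR-136-3p -0.72 to 0.52, mir-376c-p3 -1.50 to 0.93 and miR-376a-3p -0.42 to 0.46. A pseudocount of 5 gave miR-136-3p -0.026. Equal library sums gave miR-136-3p -0.023 and miR-376a-3p -0.036. The floor gave miR-136-3p -0.10. Sample weights gave miR-136-3p -0.22. The GC correction, with or without the replicate block, gave miR-136-3p -0.017 and miR-376a-3p -0.040. At day 210 against day 30, single libraries left out gave miR-381-3p -0.031 to 0.82, mir-494-p3 -0.43 to 0.22, miR-758 -0.46 to 0.098, mir-299-p3 -0.31 to 0.52, mir-487b-p3 -0.44 to 0.31, miR-299 -0.094 to 0.67, mir-369-p5 -2.74 to 0.33, miR-493-5p -2.45 to 0.11, miR-381-5p -0.24 to 0.65, mir-376c-p3 -1.04 to 1.61, mir-127-p5 -0.54 to 1.56 and miR-376a-3p -0.42 to 0.46. The GC correction, with or without the replicate block, gave mir-494-p3 0.13 and miR-758 0.094. Equal library sums gave mir-299-p3 -0.029, mir-487b-p3 -0.21, miR-381-5p -0.085 and miR-376a-3p -0.060. Sample weights gave mir-299-p3 -0.14, mir-487b-p3 -0.40, miR-381-5p -0.052 and mir-376c-p3 -1.37. The floor gave mir-127-p5 -0.18. At day 210 against day 90, single libraries left out gave mir-369-p5 -1.28 to 1.80, miR-493-5p -0.51 to 2.30, mir-382-p3 -1.53 to 0.83, mir-376c-p3 -0.75 to 1.84 and miR-376a-3p -0.44 to 0.44. A pseudocount of 5 gave mir-369-p5 0.39. The floor gave mir-369-p5 0.81 and mir-382-p3 0.49. The GC correction, with or without the replicate block, gave mir-369-p5 0.25. Sample weights gave mir-376c-p3 -0.81. Equal library sums gave miR-376a-3p -0.024.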
